A study of Mus musculus with 11 samples.

Results

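Genes of purine nucleotide breakdown and nucleoside uptake were followed through RNA sequencing of mouse small intestine. The set was 8 of the 24250 gene symbols in the expression table, taken by name: Enpp3, Nt5e, Slc28a2, Slc28a1, Slc29a1, Ada, Gda and Xdh. All 8 were found, and all 8 passed the filter of a mean of at least 1 FPKM (fragments per kilobase of gene, scaled to library size) over the libraries, as did 10296 genes in all. ND, read as a normal diet, had 3 libraries, HFD, read as a high-fat diet, had 4, and FSP, the group given a powder of 5 substances with Poria, had 4. That preparation is a Chinese herbal formula, and the series title places it in obese mice, but no label gives the diet of the FSP mice. The labels name no genotype, strain, sex, age, dose, duration or stretch of intestine, and none says whether a library came from 1 animal or a pool. The samples are labelled intestine, and the design text says small intestine. The 10 epithelial marker genes listed for that tissue were all measured, with a summed level of 20330 to 44960 FPKM per library, and 5 of 6 measured pancreatic acinar markers stayed under 1 FPKM in all 11 libraries.

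Dietary and shed nucleotides reach the small intestine as nucleoside phosphates, which cross the brush border poorly. Enzymes facing outwards strip the phosphates, sodium-coupled carriers take the nucleosides into the enterocyte, and cytosolic enzymes then deaminate and split most of the purines, whose bases are oxidised to uric acid. In this order the pathway runs from Enpp3 and Nt5e (phosphate removal) through Slc28a2, Slc28a1 and Slc29a1 (uptake) to Ada, Gda and Xdh (breakdown). Adenosine deaminase is a known product of villus enterocytes of the duodenum.

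The members were chosen with earlier results on these libraries known. For these 8 genes all values are therefore a description. They were fitted with the rest of the table, and their place relative to limma's threshold is given without a p-value and supports nothing, in every comparison. Tests are read only for genes that are no members. Depth read back from single-exon genes was 31820000 to 38390000 fragments per library, so that 1 FPKM stands for 31.8 to 38.4 fragments per kilobase of transcript. Mitochondrially encoded genes took 12.9% to 26.3% of summed FPKM in 10 libraries and 40.4% in HFD 1. Nothing states that libraries came from separate animals, so p-values measure only how far these samples spread, which can be technical. In bulk RNA, fewer cells of a type and less RNA per cell cannot be told apart.

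The 4 genes that stood furthest above ND in HFD, Ada, Nt5e, Enpp3 and Slc28a2, differ in the sequence in front of them. In levels across the 11 libraries every pair of them was alike. Pearson r of log2(FPKM + 1) ran from 0.922 (Nt5e and Enpp3) to 0.985 (Ada and Enpp3). Whether sequence bears on these levels was not tested. The 250 bases upstream of the RefSeq start of each gene (GRCm38.p6, written 5′ to 3′ on the gene's strand) are shown to let these stretches be compared. Capitals mark GATA letters (AGATAA or the same with a final G, and both with a first T in place of A) and CDX letters (TTTATG or TTTATTG) on either strand.
Ada, chr2:163750240-163750489, minus strand: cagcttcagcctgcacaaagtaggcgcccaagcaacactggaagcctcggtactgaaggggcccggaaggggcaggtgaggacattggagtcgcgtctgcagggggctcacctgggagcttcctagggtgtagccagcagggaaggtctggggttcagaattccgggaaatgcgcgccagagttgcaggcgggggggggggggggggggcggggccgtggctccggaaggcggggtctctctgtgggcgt
Nt5e, chr9:88327359-88327608, plus strand: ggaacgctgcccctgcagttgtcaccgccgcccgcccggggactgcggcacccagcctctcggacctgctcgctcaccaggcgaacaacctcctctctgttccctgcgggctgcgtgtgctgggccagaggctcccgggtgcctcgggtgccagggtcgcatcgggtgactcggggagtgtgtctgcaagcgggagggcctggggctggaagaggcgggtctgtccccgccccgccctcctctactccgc
Enpp3, chr10:24836196-24836445, minus strand: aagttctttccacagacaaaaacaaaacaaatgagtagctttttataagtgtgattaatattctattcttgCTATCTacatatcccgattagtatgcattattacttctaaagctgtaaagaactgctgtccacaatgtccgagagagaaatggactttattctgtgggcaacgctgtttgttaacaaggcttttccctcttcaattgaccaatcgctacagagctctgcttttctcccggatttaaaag
Slc28a2, chr2:122426185-122426434, plus strand: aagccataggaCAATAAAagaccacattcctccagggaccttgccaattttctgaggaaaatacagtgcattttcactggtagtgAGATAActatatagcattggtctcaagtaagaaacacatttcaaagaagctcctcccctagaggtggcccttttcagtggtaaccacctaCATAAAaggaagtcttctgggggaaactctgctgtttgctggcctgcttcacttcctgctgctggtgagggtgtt
The Ada and Nt5e stretches hold 67.2% and 72.0% G and C, more than 86.5% and 93.1% of the 32851 mouse promoters of the RefSeq promoter table. Those of Enpp3 and Slc28a2 hold 36.8% and 45.2%, more than 6.74% and 24.5% of promoters, and the median promoter holds 52.4%. GATA letters stand once in the Enpp3 stretch and once in that of Slc28a2, and in neither of the others, against 26.5% of all promoters with a match. CDX letters stand at 2 places in the Slc28a2 stretch and in none of the other 3 (14.3% of all promoters). The HNF4 letters CAAAGTCCA were found upstream of none of these 4 (0.384% of all promoters). Of the 8 members 7 matched an entry of the RefSeq promoter table. The Enpp3 and Nt5e stretches lie inside the longest extent that GENCODE M21 gives these genes, whose starts differ from those of RefSeq. A match of letters is not a measured binding site.

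Ada had the highest mean of the 8 genes in HFD. The gene lies on chromosome 2 at 163726584 to 163750239, on the minus strand of GRCm38, and encodes the enzyme that turns adenosine into inosine. In the order of the library numbers, as in each list that follows, it was at 8.04, 27.5 and 60.1 FPKM in ND, at 484, 120.0, 328 and 454 in HFD and at 83.7, 157, 244 and 108 in FSP. Every HFD library and every FSP library lay above every ND library, which held for 9.28% (HFD) and 5.57% (FSP) of tested genes, and HFD 2, the lowest of its group, lay inside the FSP range. The means were 31.9 ± 26.3 FPKM (SD, n = 3) in ND, 347 ± 166 (SD, n = 4) in HFD and 148 ± 70.9 (SD, n = 4) in FSP, so that HFD stood at 10.9-fold and FSP at 4.65-fold the ND mean. The ND libraries differed among themselves by 7.48-fold.

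Enpp3 (chromosome 10, 24772406 to 24842823, minus strand) encodes an ectoenzyme that cleaves extracellular nucleoside triphosphates to monophosphates. Its levels were 1.805, 8.68 and 20.1 FPKM in ND, 145, 66.5, 203 and 265 in HFD and 25.5, 52.4, 99.8 and 42.2 in FSP. HFD and FSP again lay wholly above ND, with HFD 2 alone reaching into the FSP range. The mean of HFD was 170 ± 84.5 FPKM (SD, n = 4), 16.6-fold that of ND at 10.2 ± 9.25 (SD, n = 3), and the FSP mean of 55.0 ± 31.9 (SD, n = 4) was 0.324 of the HFD mean.

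Nt5e (chromosome 9, 88327197 to 88372092, plus strand) encodes CD73, which takes the last phosphate off AMP and leaves adenosine. It stood at 3.61, 5.54 and 8.04 FPKM in ND, at 59.7, 30.5, 69.1 and 88.5 in HFD and at 37.7, 45.7, 90.1 and 39.4 in FSP. The lowest HFD library lay well above the highest ND library, as did the lowest of FSP, whereas HFD and FSP overlapped over most of their range. Group means were 5.73 ± 2.23 (SD, n = 3), 62.0 ± 24.1 (SD, n = 4) and 53.2 ± 24.8 FPKM (SD, n = 4), so that HFD stood at 10.8-fold the ND mean and FSP at 9.29-fold.

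Slc28a2 (chromosome 2, 122426477 to 122461137, plus strand) encodes CNT2, a sodium-coupled carrier that prefers purine nucleosides. Its levels were 5.71, 12.2 and 23.8 FPKM in ND, 64.0, 41.3, 60.4 and 74.9 in HFD and 42.8, 51.5, 101 and 42.7 in FSP. The highest single value was that of FSP 3, and the means of HFD and FSP, 60.2 ± 14.03 and 59.6 ± 28.2 FPKM (SD, n = 4 each), differed by less than the spread in either group, against 13.9 ± 9.18 (SD, n = 3) in ND. Slc28a2b, a neighbouring copy with which reads could be shared, was listed at no more than 0.401 FPKM in any library.

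Slc28a1 (chromosome 7, 81114799 to 81170416, plus strand), the sister carrier CNT1 that prefers pyrimidine nucleosides, moved over a smaller range. It stood at 12.4, 15.9 and 20.2 FPKM in ND, at 22.4, 25.1, 39.8 and 47.0 in HFD and at 23.97, 18.0, 28.5 and 24.3 in FSP. All HFD libraries lay above ND, by a mean of 2.08-fold, and FSP overlapped both. The ratio of Slc28a2 to Slc28a1 ran from 0.459 to 1.18 in ND. In HFD it was 1.52 to 2.86, and FSP libraries had 1.76 to 3.56. The purine carrier was the more abundant transcript of the pair in all 8 HFD and FSP libraries and in 1 of 3 ND libraries.

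Slc29a1 (chromosome 17, 45585200 to 45599606, minus strand) encodes ENT1, a sodium-independent carrier present in most cells. It had the lowest mean of the 8 genes in each group, at 3.05, 2.63 and 2.40 FPKM in ND, 1.00, 2.53, 2.19 and 2.17 in HFD and 2.27, 0.885, 2.67 and 3.08 in FSP. The groups overlapped, and the lowest libraries were HFD 1 and FSP 2. There the summed level of 6 smooth muscle genes was also lowest, at 83.9 and 55.4 FPKM against 157 to 484 in the other 9. The factor of median-ratio scaling was lowest there too, at 0.751 and 0.865 against 0.983 to 1.13. The widely expressed gene Huwe1, named below for its likeness to Slc29a1, stood at 2.55 and 2.34 FPKM against 4.26 to 6.04. What part muscle or library-wide scaling had in the low Slc29a1 values was not tested.

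The enzymes of the last steps did not follow the first. Gda (chromosome 19, 21391307 to 21473445, minus strand), which deaminates guanine to xanthine, stood at 339, 330.0 and 355 FPKM in ND, 225, 225, 259 and 269 in HFD and 156, 231, 343 and 202 in FSP. Every HFD library lay below every ND library, as in 33.6% of tested genes, with an HFD mean of 0.716 of the ND mean, while FSP spanned both groups. Xdh (chromosome 17, 73883895 to 73950196, minus strand), the xanthine oxidoreductase that makes uric acid, stood at 67.8, 77.2 and 84.6 FPKM in ND, 61.9, 61.7, 80.7 and 94.1 in HFD and 46.0, 47.2, 85.3 and 54.5 in FSP. Its groups overlapped throughout, and the HFD mean was 0.975 of that of ND. FSP 1, 2 and 4 lay below every library of the other groups for Xdh, and FSP 3 did not.

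**Figure D1:**
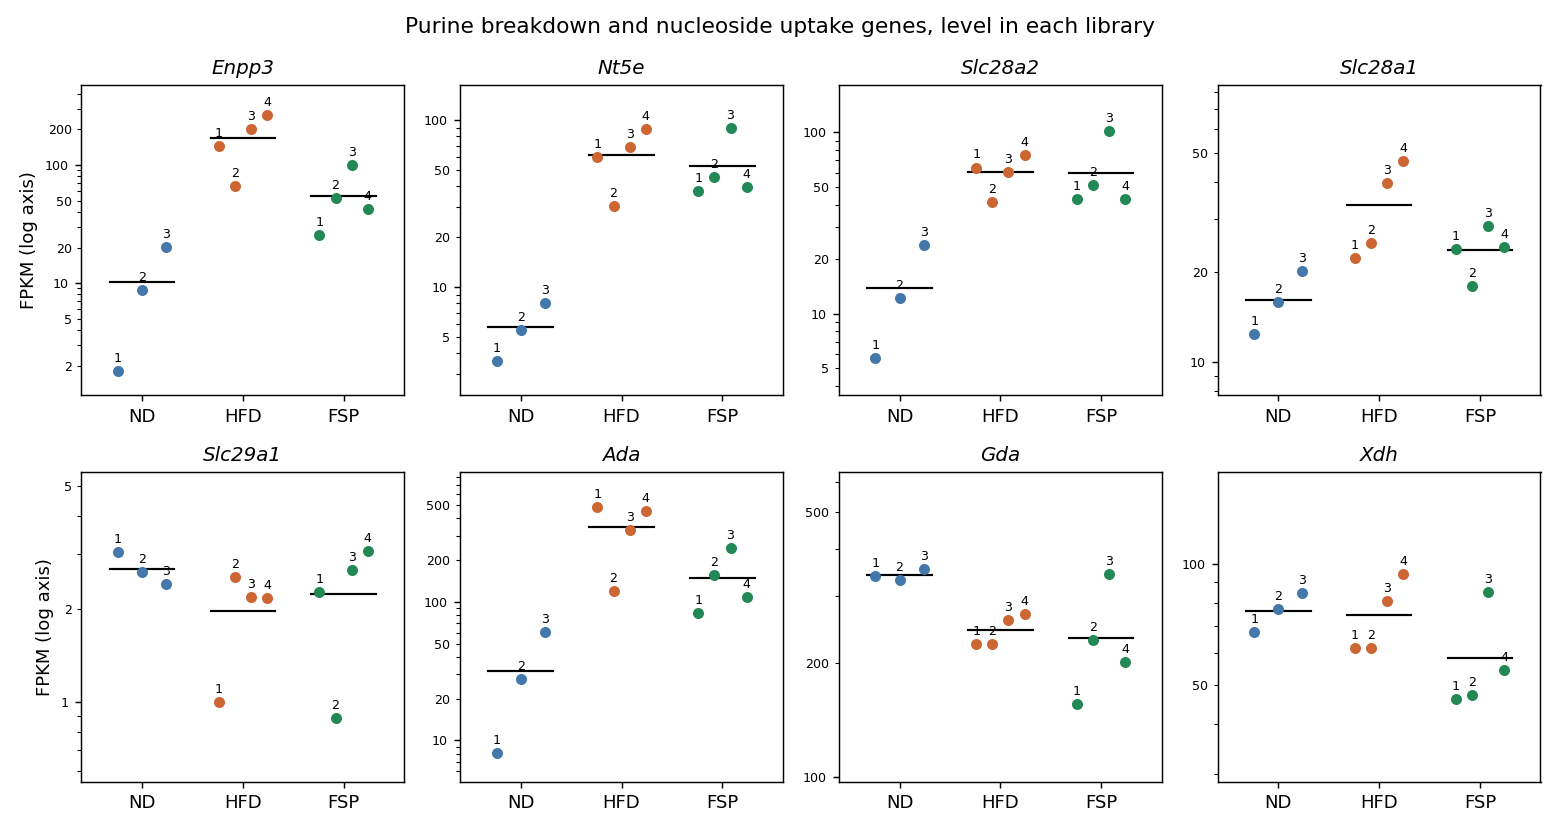
FPKM of the 8 genes in each library on log axes, with the library's replicate number beside each point and a black line at the group mean; ND n = 3, HFD n = 4, FSP n = 4. Enpp3, Nt5e, Slc28a2 and Ada have every HFD and FSP point above the ND points, and the other 4 genes do not.

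The order of levels within a group, in FPKM and hence per length, changed with these differences. In ND, Gda led at 341 ± 12.4 FPKM (SD, n = 3), followed by Xdh at 76.5 ± 8.42, and both stood apart from the gene next below. Ada, Slc28a1, Slc28a2, Enpp3 and Nt5e came next and neighbours among them overlapped. In HFD, Ada led, and its libraries overlapped with those of Gda. Enpp3 came next in HFD, ahead of Xdh, but overlapped with both of its neighbours, as did each gene down to Slc28a1. In FSP, Gda was again first and Ada second with overlapping libraries. Slc28a2, Xdh, Enpp3 and Nt5e formed an overlapping run at means of 53.2 to 59.6 FPKM. Nt5e, the lowest of this run by mean, stood apart from Slc28a1 below. Enpp3 in FSP 1, at 25.5 FPKM, lay inside the FSP range of Slc28a1. Slc29a1 stood last and apart from its neighbour in all 3 groups.

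The fitted changes put these differences on a common scale. With limma on log2(FPKM + 1), HFD minus ND came to 4.19 log2 units (SE 0.66) for Enpp3, 3.61 (SE 0.63) for Ada, 3.18 (SE 0.38) for Nt5e, 2.20 (SE 0.41) for Slc28a2 and 0.97 (SE 0.26) for Slc28a1. The other 3 had −0.05 (SE 0.22, Xdh), −0.34 (SE 0.26, Slc29a1) and −0.48 (SE 0.21, Gda). Of the 8, 5 were past the threshold of 0.05 upwards after Benjamini-Hochberg adjustment over all genes, where 5.36% of tested genes were, and 0 downwards (15.1% of genes; 1 member at an unadjusted p under 0.05). Since the results were known when the genes were picked, nothing is read from this count or from those of the other comparisons. The median change was 1.59 over the 8 and −0.21 over all tested genes. Median-ratio scaling brings the latter to −0.01 and puts Xdh at 0.19, Slc29a1 at −0.18 and Gda at −0.23, so that the direction of Xdh turns with the scaling. The place of Slc28a1 past the threshold ended without ND 1, ND 2 or HFD 3 and with libraries scaled to equal totals.

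In FSP against ND the log2 changes were 2.97 (SE 0.38) for Nt5e, 2.58 (SE 0.66) for Enpp3, 2.46 (SE 0.63) for Ada, 2.12 (SE 0.41) for Slc28a2 and 0.53 (SE 0.26) for Slc28a1. As a description, Nt5e and Slc28a2 were past limma's threshold, 2 of 8 where 0.699% of genes were past it upwards, and 4 of 8 had every FSP library above every ND library, which held for 5.57% of tested genes. In either direction 1.03% of genes were past the threshold. The place of Slc28a2 past it ended without ND 1, ND 2, HFD 3 or any single FSP library, and without ND 3 the count of members past the threshold was 4. Without FSP 3, Gda was past it downwards in FSP against ND, at −0.81 (SE 0.15). In FSP against HFD 0 of 8 were past limma's threshold (3.74% of genes in either direction) and 1 had an unadjusted p under 0.05. Enpp3 stood at −1.61 (SE 0.61), Ada at −1.16 (SE 0.59), Slc28a1 at −0.44 (SE 0.24), Xdh at −0.38 (SE 0.20), Nt5e at −0.21 (SE 0.35), Gda at −0.13 (SE 0.20), Slc28a2 at −0.08 (SE 0.38) and Slc29a1 at 0.09 (SE 0.24). All 8 genes overlapped between FSP and HFD, where 8.52% of tested genes had FSP wholly above and 2.3% wholly below. These comparisons share HFD or ND libraries and are not independent of each other.

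**Figure D2:**
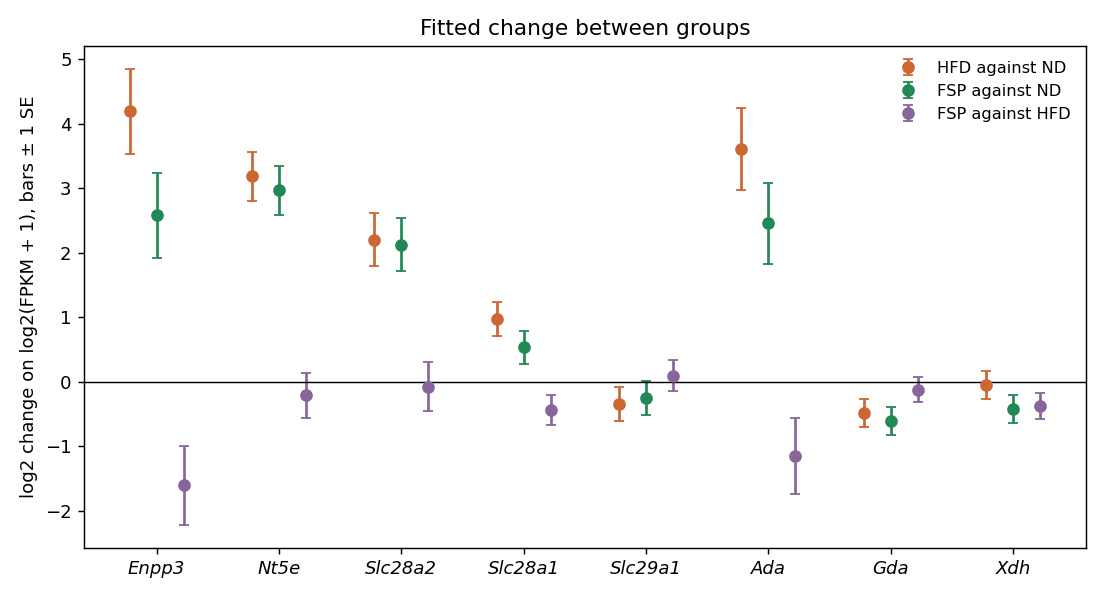
Fitted log2 change on the log2(FPKM + 1) scale for the 8 genes in the 3 comparisons, with bars of 1 SE on each side. Nt5e and Slc28a2 have nearly the same change in HFD and FSP against ND (3.18 and 2.97, 2.20 and 2.12), and Enpp3 and Ada have a smaller one in FSP (4.19 and 2.58, 3.61 and 2.46).

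Ratios between members within a library, which do not depend on how libraries are scaled, describe the make-up of the set. The ratio of Enpp3 to Nt5e, the phosphate-removing enzymes of the cell surface, was 2.43, 2.18, 2.93 and 2.99 in HFD and 0.676, 1.15, 1.11 and 1.07 in FSP, with no overlap, and 0.5, 1.57 and 2.50 in ND. Enpp3 relative to Slc28a2 was 1.61 to 3.54 in HFD, 0.595 to 1.02 in FSP and 0.316 to 0.844 in ND. Ada relative to Nt5e was 3.93 to 8.11 in HFD and 2.22 to 3.43 in FSP, and 2.23 to 7.47 in ND. In these 3 ratios every FSP library lay below every HFD library. Others did not separate: Ada relative to Slc28a2 was 2.91 to 7.56 in HFD, 1.96 to 3.05 in FSP and 1.41 to 2.52 in ND, and Ada relative to Enpp3 was 1.62 to 3.34 in HFD, 2.45 to 3.29 in FSP and 2.99 to 4.46 in ND. Nt5e relative to Slc28a2 was 0.338 to 0.632 in ND, 0.741 to 1.18 in HFD and 0.881 to 0.923 in FSP, and there FSP lay inside the HFD range. The ratios were chosen after the values were seen and carry no test.

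**Figure D3:**
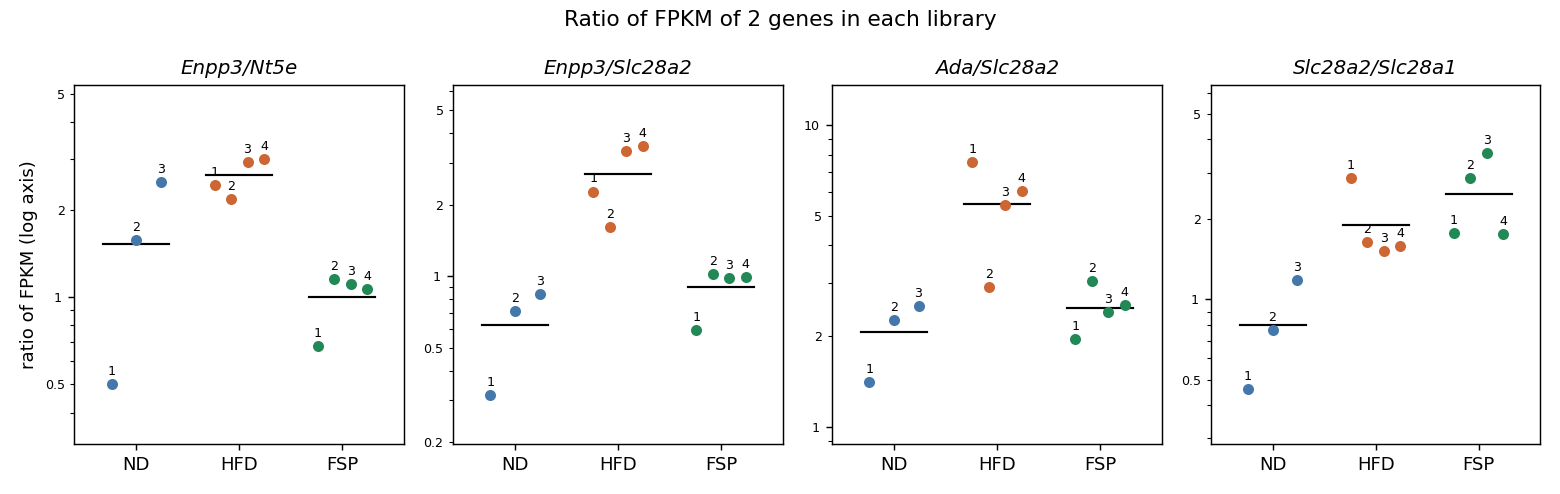
Ratio of FPKM of 2 genes within each library on log axes, with replicate numbers and a black line at the group mean. Enpp3/Nt5e and Enpp3/Slc28a2 in the 4 FSP libraries lie below all 4 HFD libraries, and Slc28a2/Slc28a1 lies above 1.5 in every HFD and FSP library.

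Levels also moved with the expression of marker genes of position along the gut. No label gives the stretch of intestine, and whether these markers report position or respond to diet was not tested. The position score of a library subtracts the mean log2(FPKM + 1) of 10 genes of the proximal small intestine from that of 11 distal ones, none of them a member, so that it is high where distal genes lead. ND 1, 2 and 3 scored 5.23, 4.27 and 2.65. HFD libraries, in the order of their numbers, scored −0.24, 0.55, −0.10 and −0.43, and FSP libraries scored 2.79, 2.91, 1.16 and 3.55. By limma, 9 of the 11 distal genes fell and 0 rose in HFD against ND (0 also at an unadjusted p under 0.05), and 5 of 6 tested proximal genes rose and 1 fell. The summed level of the distal list was 2781 to 13540 FPKM in ND, 882 to 1282 in HFD and 1533 to 5244 in FSP, and that of the proximal list 533 to 4772, 12090 to 15960 and 3013 to 9462. Within groups, ND 3, with the lowest score of ND, had the highest Ada, Enpp3, Nt5e and Slc28a2 of its group, HFD 2, with the highest score of HFD, had the lowest, and FSP 3, with the lowest score of FSP, had the highest. Other libraries departed from this order: FSP 4, with the highest score of FSP, had more Ada, Enpp3 and Nt5e than FSP 1, and HFD 4, with the lowest score of HFD, had less Ada than HFD 1.

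Libraries with like scores can be set side by side. ND 3, FSP 1 and FSP 2 scored 2.65, 2.79 and 2.91. Nt5e was at 8.04, 37.7 and 45.7 FPKM in these, Slc28a2 at 23.8, 42.8 and 51.5, Ada at 60.1, 83.7 and 157, and Enpp3 at 20.1, 25.5 and 52.4. Each of the 4 genes was lowest in the ND library, by the widest margin for Nt5e. That order was given beforehand, since every FSP library lay above every ND library in all 4 genes. The margins rest on ND 3 alone and were not tested. With the score as a covariate in limma, the log2 changes in HFD against ND became 1.04 (SE 0.51) for Nt5e, 0.41 (SE 0.85) for Enpp3, 0.03 (SE 0.51) for Slc28a1, −0.02 (SE 0.82) for Ada and −0.46 (SE 0.32) for Slc28a2, and 0 of 8 members and 0 of 10296 genes were past the threshold. In FSP against ND with that covariate, the values were 2.21 (SE 0.28) for Nt5e, 1.25 (SE 0.46) for Enpp3, 1.18 (SE 0.45) for Ada and 1.18 (SE 0.17) for Slc28a2, and 13 genes of the whole table were past the threshold upwards and 3 downwards. In FSP against HFD the covariate turned the signs, to 1.64 (SE 0.23) for Slc28a2, 1.19 (SE 0.58) for Ada, 1.17 (SE 0.36) for Nt5e and 0.84 (SE 0.60) for Enpp3, with 0 genes of the table past the threshold. HFD overlaps in the score with neither ND nor FSP. Diet and position cannot be told apart in HFD against ND, nor treatment and position in FSP against HFD.

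**Figure D4:**
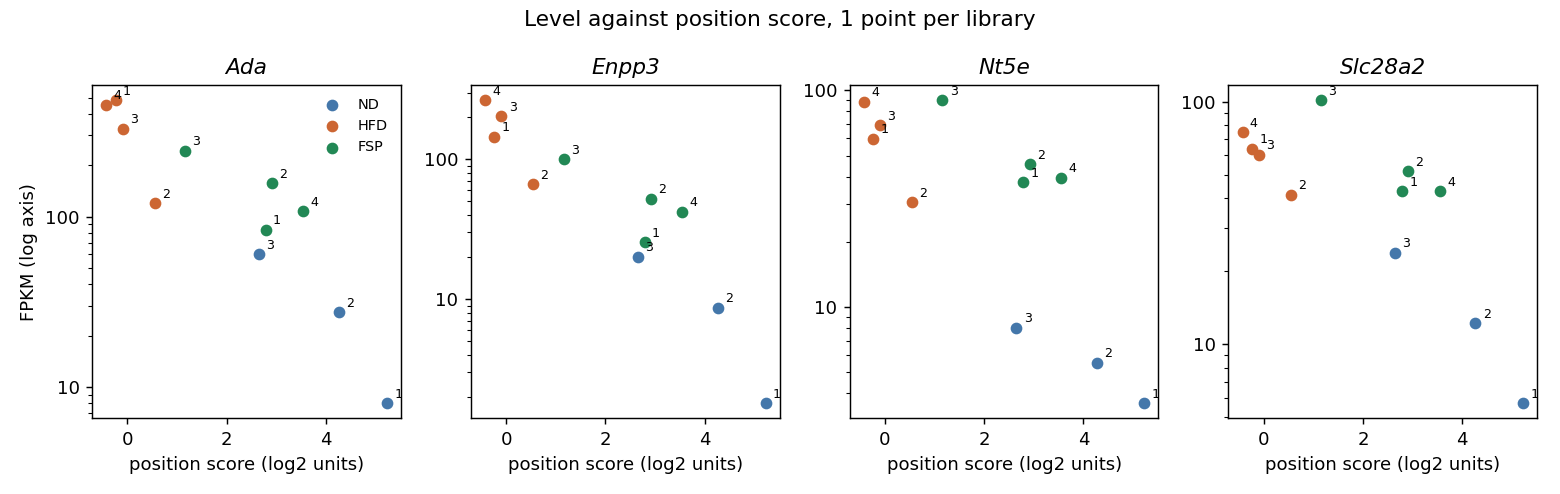
FPKM (log axis) of Ada, Enpp3, Nt5e and Slc28a2 against the position score of each library in log2 units, with replicate numbers; high scores mean more distal genes. The libraries of HFD lie at scores of −0.43 to 0.55 and those of ND at 2.65 to 5.23, and near a score of 2.7 the Nt5e level is 8.04 FPKM in ND 3 and 37.7 and 45.7 in FSP 1 and 2.

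Cells other than enterocytes also carry some of these transcripts. Ada and Nt5e are made by lymphocytes and Enpp3 by mast cells and basophils. The summed level of 7 T cell genes was 5.40 to 9.02 FPKM in ND, 5.34 to 12.2 in HFD and 2.65 to 16.2 in FSP, and FSP 3, highest of its group in Ada and Nt5e, had the lowest of these sums. Of 8 mast cell genes 7 stayed under 1 FPKM in all libraries, none was at 0 in every library, and the summed level was 1.197 to 1.852 FPKM in ND, 0.663 to 1.56 in HFD and 0.680 to 2.11 in FSP. Together, 9 B cell and plasma cell genes came to 38.6 to 65.0 FPKM in ND, 126 to 287 in HFD and 87.5 to 805 in FSP, with FSP 3 lowest in its group. The part of lymphocytes and mast cells in these results was not tested.

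Each member's nearest genes by profile were found over the 11 libraries, as the 3 other tested genes with the highest Pearson r of log2(FPKM + 1). The libraries share depth, position and group, so r describes likeness and carries no p. For Slc28a2 the nearest of all was Slc23a4 (r = 0.991, n = 11), a sodium-dependent nucleobase transporter of rodent intestine, followed by Apba3 (0.975) and the lipid droplet gene Cidec (0.970). For Ada they were the epoxide hydrolase gene Ephx2 (0.976), Slc23a4 (0.975) and Ms4a10 (0.968), and Ephx2 (0.985) and Ms4a10 (0.972) recurred for Enpp3 beside the platelet-activating factor receptor gene Ptafr (0.975). For Nt5e they were Pgm2 (0.975), Plek2 (0.974) and Gprc5a (0.970). Slc28a1 lay nearest to the mitochondrial thiolase gene Acaa2 (0.987), and Slc29a1 to the widely expressed genes Ehmt1 (0.987), Huwe1 (0.986) and Proser1 (0.984). Xdh and Gda had no neighbour above 0.922, the nearest being Txnl1 (0.913) and Tax1bp1 (0.922). Among members, Ada and Enpp3 were most alike (0.985), then Nt5e and Slc28a2 (0.967), and Gda and Xdh had 0.774.

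The rest of the pathway was tested to see what moved beside these genes. The list was taken from textbook knowledge, but with earlier results on these libraries known, so it was not drawn up blind to them. Of 92 listed genes 91 were measured and 66 passed the filter. In HFD against ND 12 rose, 13 fell and 41 did not pass by limma with adjustment over all genes, beside 5.36% of all tested genes rising and 15.1% falling. The median change was −0.20, against −0.21 over all genes. With median-ratio scaling, which brings the median of all genes to −0.01, 17 rose and 6 fell, and with equal totals 7 rose and 12 fell. Without ND 1 the counts were 5 and 5, without ND 2 they were 7 and 3, and without ND 3 or HFD 1 there were 8 falls. With the position score as a covariate both counts were 0.

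Among transporters of nucleosides, bases and urate, changes went both ways. Of 10 measured 5 were tested, of which 1 rose and 2 fell (median −0.36). Slc23a4 was at 4.57, 8.88 and 14.9 FPKM in ND, 37.0, 23.6, 34.5 and 39.8 in HFD and 19.6, 27.2, 42.9 and 24.5 in FSP. It rose in HFD by a log2 change of 1.83 (SE 0.34, limma adjusted p = 0.0041), with 4 of 4 HFD libraries above ND. Abcg2, an efflux pump that carries urate and drugs, stood at 94.8, 91.0 and 60.9 FPKM in ND, 19.8, 22.5, 27.0 and 29.3 in HFD and 35.1, 40.4, 40.3 and 43.1 in FSP. It fell in HFD by 1.69 on the log2 scale (SE 0.18, limma adjusted p = 0.000367), with all HFD libraries below all of ND, and was also lower in FSP than in ND (−1.01, SE 0.18, limma adjusted p = 0.0247), a call lost without ND 1, ND 2, HFD 3 or FSP 1. Its log2 change in FSP against HFD was 0.68 (SE 0.16, limma adjusted p = 0.0425), a call that ended in 19 of 22 alternatives, median-ratio scaling and the loss of ND 1, ND 2 or any HFD or FSP library among them. Slc2a9, a urate carrier, had 13.3, 13.8 and 14.1 FPKM in ND and 4.75, 6.24, 7.75 and 8.83 in HFD and fell by 0.93 on the log2 scale (SE 0.17, limma adjusted p = 0.00375). With the position score as a covariate Slc23a4 went to −0.20 (SE 0.38), Abcg2 to −1.22 (SE 0.38) and Slc2a9 to −1.07 (SE 0.39), none of them past the threshold.

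Enzymes of intracellular purine breakdown divided. Of 11 tested, 2 rose, 5 fell and 4 did not pass (median −0.34). The cytosolic nucleotidase gene Nt5c2 rose by 0.68 (SE 0.14, limma adjusted p = 0.00693) and Samhd1, which degrades deoxynucleotides, by 0.56 (SE 0.12, limma adjusted p = 0.00987). Nt5c3, a nucleotidase acting mainly on pyrimidines, fell by 0.78 on the log2 scale (SE 0.15, limma adjusted p = 0.00474). Pnp2, a near copy of the purine nucleoside phosphorylase gene Pnp that follows Ada in the pathway, stood at 84.8, 107 and 123 FPKM in ND and 74.4, 53.7, 58.6 and 58.9 in HFD and fell by 0.76 (SE 0.18, limma adjusted p = 0.0151), and Pnp, named after its values were seen, had −0.52 (SE 0.13). Reads of Pnp and Pnp2 may be split between them, and the call of Pnp2 ended with median-ratio scaling and without ND 2 or ND 3. That of Samhd1 ended without ND 1 and with equal totals. The ratio of Ada to Pnp was 0.098 to 0.608 in ND, 2.03 to 7.75 in HFD and 1.37 to 3.06 in FSP.

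**Figure D5:**
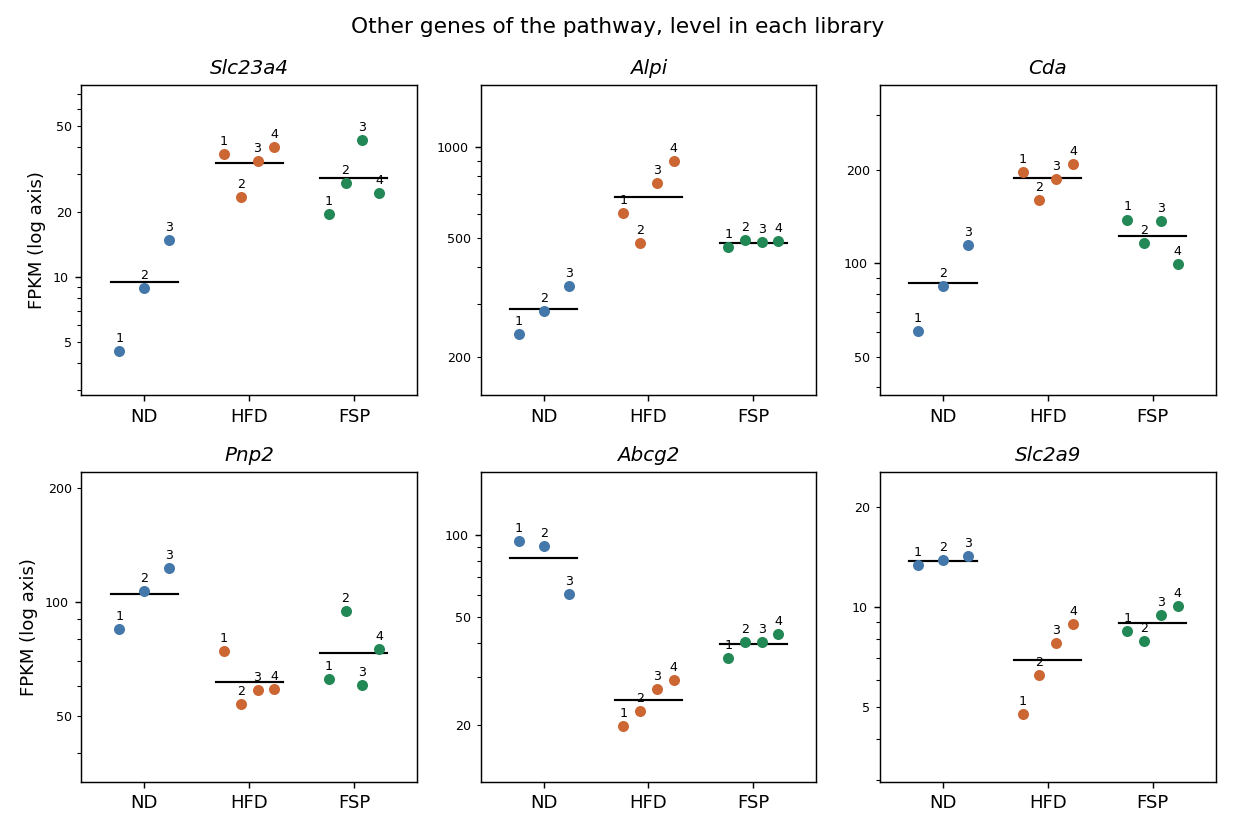
FPKM of 6 further pathway genes in each library on log axes, with replicate numbers and a black line at the group mean. Slc23a4, Alpi and Cda lie higher in every HFD library than in any ND library, and Pnp2, Abcg2 and Slc2a9 lie lower in every HFD library than in any ND library.

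Among 7 tested extracellular enzymes 2 rose, 1 fell and 4 did not pass (median 0.40). Alpi, the intestinal alkaline phosphatase of the brush border, stood at 239, 284 and 345 FPKM in ND, 603, 480.1, 759 and 898 in HFD and 464, 489, 483 and 488 in FSP, and rose by 1.22 (SE 0.20, limma adjusted p = 0.00228). The called genes of the Entpd family went both ways, Entpd7 by 0.71 (SE 0.19, limma adjusted p = 0.0256) and Entpd2 by −0.37 (SE 0.11, limma adjusted p = 0.0321), the latter without a call under median-ratio scaling. Entpd7 did not pass without ND 1, ND 2, HFD 3 or HFD 4, nor Entpd2 without any ND library, HFD 1, HFD 2 or HFD 3. With equal totals Entpd7 did not pass either. Of 10 pyrimidine genes tested 2 rose, 1 fell and 7 did not pass (median −0.04). Cytidine deaminase, Cda, had 86.7 ± 27.3 FPKM (SD, n = 3) in ND and 188 ± 20.5 (SD, n = 4) in HFD and rose by 1.15 (SE 0.20, limma adjusted p = 0.00321). Upb1, the last enzyme of uracil breakdown, rose by 1.52 (SE 0.25, limma adjusted p = 0.00217), and the uridine phosphorylase gene Upp1 fell by 1.22 on the log2 scale (SE 0.32, limma adjusted p = 0.0224), a call lost with median-ratio scaling and without ND 1, ND 2 or HFD 1.

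Genes that make or re-use purines mostly did not pass. In de novo synthesis 11 of 12 tested genes had a negative change in HFD, with a median of −0.50 against −0.21 over all tested genes. HFD 1, with the lowest median-ratio factor (0.751), was the lowest HFD library in each of the 12. It had 2.22 FPKM of Gart against 4.89 to 5.08 in the other HFD libraries, and 67.3 of Adss against 69.3 to 82.7. What part HFD 1 or library-wide scaling had in the negative changes of this list was not tested. Of the 11, 1 passed, Gmps, which makes GMP, at −0.66 (SE 0.20, limma adjusted p = 0.0388). Adss, on the way to AMP, rose by 0.43 (SE 0.14, limma adjusted p = 0.043). The Gmps call ended without HFD 1, the library lowest in Gmps of its group, HFD 2, FSP 1 or any ND library, and that of Adss without any ND library, HFD 2, HFD 3, HFD 4, FSP 1 or FSP 4. With equal totals the Adss call ended as well. In salvage 1 of 12 rose, Ak3, a mitochondrial adenylate kinase gene (0.52, SE 0.15, limma adjusted p = 0.0334), and 1 fell, Hprt, which recovers hypoxanthine and guanine (−0.36, SE 0.09, limma adjusted p = 0.0176, without a call under median-ratio scaling). Neither call held without ND 1 or ND 2, and that of Ak3 also ended without HFD 3 or HFD 4 and with equal totals.

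Xdh needs a molybdenum cofactor, and of 5 tested genes for the cofactor and its enzymes 2 rose, 1 fell and 2 did not pass (median 0.45). Mocs1 and Mocs2, which build the cofactor, rose by 0.66 (SE 0.15, limma adjusted p = 0.0109) and 0.56 (SE 0.14, limma adjusted p = 0.0143), calls lost without ND 1 and, for Mocs2, without ND 2. The Mocs1 call was also lost with equal totals. The sulfite oxidase gene Suox fell from 126, 89.0 and 7.22 FPKM in ND to 1.00, 1.66, 2.49 and 3.199 in HFD (log2 change −3.93, SE 0.88, limma adjusted p = 0.0106), a call lost without ND 1 or ND 2. With the position covariate it stood at 1.16 (SE 1.11). Among 4 tested receptors, the adenosine receptor gene Adora2b rose by 1.70 (SE 0.52, limma adjusted p = 0.0406), although ND 3 at 7.47 FPKM lay above HFD 4 at 6.96 and the call was lost without ND 1, ND 2, HFD 1, HFD 2, HFD 3 or FSP 1. P2ry2, a receptor for ATP and UTP, stood at 11.4, 12.5 and 9.48 FPKM in ND, 3.10, 6.73, 6.77 and 6.87 in HFD and 14.01, 13.9, 14.4 and 16.8 in FSP. It fell in HFD against ND by 0.86 on the log2 scale (SE 0.21, limma adjusted p = 0.017), a call lost without ND 1 or ND 2.

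In FSP against HFD 2 of the 66 genes rose and 2 fell by limma (2.83% and 0.913% of all tested genes), with a median of 0.07 against 0.12 over all genes. P2ry2 rose by 1.25 (SE 0.20, limma adjusted p = 0.0122), with 4 of 4 FSP libraries above 4 of 4 HFD libraries, and did not pass without FSP 4. Upb1, at 1.51 ± 0.252 FPKM (SD, n = 4) against 4.18 ± 1.28, fell by 1.01 on the log2 scale (SE 0.23, limma adjusted p = 0.0363) and Samhd1 by 0.49 (SE 0.11, limma adjusted p = 0.0407). The Upb1 call ended without ND 2, HFD 1, HFD 3, HFD 4 or any FSP library, and that of Samhd1 ended without each single library other than FSP 3. In FSP against ND 0 rose (9 at an unadjusted p under 0.05) and 1 fell, Abcg2, beside 0.699% and 0.33% of all tested genes.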

How the data were processed

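RNA of 11 libraries was extracted with TRIzol and made into libraries with the VAHTS Universal V6 kit, per the labels' protocols. The authors used fastp, HISAT2, HTSeq and R 3.2.0 with mm10, per the submitters' processing notes, and deposited FPKM values for 24250 gene symbols. The sources used here do not give the annotation, the FPKM tool or any use of strand in counting. All 88 member values were identical in the single-library tables.

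Genes with a mean of at least 1 FPKM over the 11 libraries (10296) were tested in 1 fit over all groups with limma 3.58.1 (R 4.3.3, trend on) on log2(FPKM + 1), two-sided, with Benjamini-Hochberg adjustment and a threshold of 0.05. Fold changes on this scale understate those of low genes. Python 3.11.15 and pandas 2.3.3 did the rest. The script was tested on simulated data. Depth was read from FPKM steps of 658 single-exon genes, of which 75.0% to 78.9% of values up to 10 fragments came out whole within 0.05. Depth is thus an estimate, and no count test was run.

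The members, pathway lists and marker lists were chosen with earlier results of these data known. Named were all members, up to 4 genes past the threshold per pathway list and comparison by smallest p, and the 3 nearest genes by profile. Members were fitted with all genes, but their place relative to the threshold is a description, and likeness of profile has no test. Coordinates are from GENCODE M21 (GRCm38). Replicate numbers were not taken to pair libraries. Alternatives covered the pseudocount, filter, scaling, replicate block, position covariate, groups fitted and libraries left out.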

Additional observations from a re-analysis of the deposited data

Results flagged for a closer look

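Of 60 sets of 4 libraries checked for a library far from the rest of its group, 5 had one, and chance gives about 1 in 20. FSP 3 stood alone above the other FSP libraries in Nt5e, at 90.1 FPKM, and in Slc28a2, at 101 FPKM. It also had the lowest position score of its group, at 1.16. HFD 1 stood alone below the other HFD libraries in Gmps, at 1.59 FPKM, and in P2ry2, at 3.10 FPKM, and 40.4% of its summed FPKM came from mitochondrially encoded genes. FSP 4 stood alone above its group in Suox, at 30.4 FPKM, and had the highest position score of FSP, at 3.55. What part position or mitochondrial share had in these values was not tested.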

How the results depend on the processing

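Precision rests on 3 or 4 libraries per group, and HFD overlaps in position score with neither ND nor FSP. At about 32 fragments per kilobase for 1 FPKM the low gene Slc29a1 is measured less exactly than the others. Counts of members are a description and give no support. Counts below are genes past limma's threshold, higher and then lower, and the cause of the shifts was not tested.

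With the position covariate, HFD against ND had 0 and 0 over the whole table (552 and 1557 without it), 0 and 0 of the pathway and 0 members higher, FSP against HFD had 0 and 0 over the table and 0 and 0 of the pathway, and FSP against ND had 13 and 3 over the table and 0 pathway genes lower. The log2 change in HFD against ND turned to −0.017 for Ada, −0.46 for Slc28a2, −0.77 for Adora2b, −0.18 for Entpd7, −0.20 for Slc23a4 and 1.16 for Suox.

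With median-ratio scaling, HFD against ND had 1095 and 923 over the table and 6 pathway genes lower, and FSP against HFD had 181 and 169 (291 and 94 before) with 1 pathway gene higher. With equal totals, HFD against ND had 7 pathway genes higher, and FSP against HFD had 41 genes lower and 1 and 0 of the pathway. With equal totals without mitochondrially encoded genes, FSP against HFD had 162 genes higher and 1 pathway gene higher, and FSP against ND had 71 genes lower (34 before) and 1 pathway gene higher. Scaled to 10 epithelial genes, an alternative chosen after seeing the data, HFD against ND had 1010 and 640 with 6 pathway genes lower, FSP against HFD had 88 and 871 with 1 and 12 of the pathway and 2 members lower (Slc28a1 and Xdh), and FSP against ND had 186 genes lower and 1 and 2 of the pathway.

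With no filter, FSP against HFD had 86 and 31 over the table and 1 and 0 of the pathway, and FSP against ND had 25 higher (72 before), 0 pathway genes lower and 1 member higher. A mean of at least 5 FPKM gave 1 pathway gene higher in FSP against ND, and a pseudocount of 0.1 gave 1 lower in FSP against HFD. Fitted on only the 2 groups compared, FSP against HFD had 56 and 20 over the table and 1 and 0 of the pathway, FSP against ND had 42 higher and 1 member higher, and HFD against ND had 1 member lower, Gda. Without both HFD 1 and FSP 2, also chosen after seeing the data, FSP against HFD had 151 and 31 with 1 and 1 of the pathway, and FSP against ND had 86 lower, 2 pathway genes lower and 1 member higher.

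With the replicate number as a block, HFD against ND had 651 and 1706 over the table, FSP against HFD had 1 and 0 of the pathway and FSP against ND had 1 pathway gene higher, while member counts were unchanged. Deviations of libraries with the same number correlated from −0.0994 to 0.454, and not every library correlated best with its own number.

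Leaving out 1 library at a time, HFD against ND had 264 to 635 higher and 560 to 2043 lower over the table, 5 to 13 and 3 to 16 of the pathway, and 4 to 5 and 0 to 1 of the members. FSP against HFD had 34 to 348 and 14 to 123 over the table, and 0 to 2 and 0 to 1 of the pathway. FSP against ND had 11 to 108 and 2 to 93 over the table, 0 to 1 and 0 to 2 of the pathway, and 1 to 4 and 0 to 1 of the members.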
